A study of Mus musculus with 6 samples.

Results

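Cathepsins are the main proteases of the lysosome, and cystatin C is a secreted inhibitor of one of their families. Their messenger RNAs were compared between whole hippocampal RNA and RNA bound to ribosomes tagged in cells that use the Cx3cr1 promoter. The 10 genes Ctss, Ctsb, Ctsl, Ctsh, Ctsc, Ctsz, Ctsf, Ctsd, Ctsa and Cst3 were taken by symbol from a table of 15388 genes. This list was chosen with earlier results of these data known, so counts over it are a description. Further family members outside the list are given below. All 10 were found, and all 10 passed the limit on low reads, more than 20 scaled reads in the 3 libraries of either fraction, that left 15344 genes for the test.

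Newly made cathepsins are tagged with mannose 6-phosphate, carried to endosomes and lysosomes, and activated there by removal of a propeptide at acid pH. Most belong to the papain family of cysteine proteases, whereas cathepsin D is an aspartic protease and cathepsin A a serine carboxypeptidase. Cystatin C blocks papain-family enzymes by filling their active site, mostly outside the cell. Microglia, the resident macrophages of the brain, use lysosomal proteases to degrade material taken up by phagocytosis and to process antigen.

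The samples came from hippocampus of Cx3cr1-cre/ERT2+; NuTRAP+ mice, in which tamoxifen activates Cre recombinase in cells that use the Cx3cr1 promoter, and Cre switches on a GFP-tagged ribosomal protein. The mice of the study were about 3 months old, of both sexes, heterozygous for both alleles, and all had received tamoxifen, so both fractions carried the same alleles and treatment. From each of 3 animals, 201, 207 and 208, part of the cleared homogenate was kept as Input and the ribosomes bound by an anti-GFP antibody gave the Positive fraction of translating ribosome affinity purification (TRAP). Each animal thus gave 1 Input and 1 Positive library, 6 in all. The Cx3cr1 promoter is also active in macrophages at the borders of the brain, so the tag was not limited to microglia. It is active in blood monocytes too, and the study waited some weeks after tamoxifen so that these short-lived cells would be replaced by untagged ones. The unbound fraction was not analysed here.

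The libraries held 14879734 to 17757918 reads. The first principal component, with 84.9% of the variance, separated the fractions, and on the second the Positive library of animal 208 stood apart from the others with a score of -29.1. All 10 microglial markers listed for a check of the label (among them Cx3cr1, P2ry12, Tmem119, Csf1r and Aif1) were higher in Positive, with a median log2 fold change of 4.66. Their summed level was 5258 to 5601 scaled reads in Input and 105272 to 155149 in Positive, and it was lowest among the Positive libraries in animal 208. A scaled read is a read divided by the size factor of its library, so it compares libraries but not genes of different length.

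All 10 genes were higher in the Positive fraction than in Input, and none was lower. Among all genes tested, 24% were called higher at an adjusted p under 0.05 (edgeR quasi-likelihood test, Benjamini-Hochberg) and 22% lower. The median log2 fold change was 2.50 over the 10 genes and -0.01 over all genes tested. For each of the 10 genes the lowest Positive library lay above the highest Input library, which held for 28.9% of all genes tested. Both fractions came from the same homogenate, so these differences describe how strongly a transcript was enriched in the captured RNA. How much of the Positive RNA came from the tagged cells was not tested. In Input, more cells of a type and more RNA per cell cannot be told apart.

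**Figure D1:**
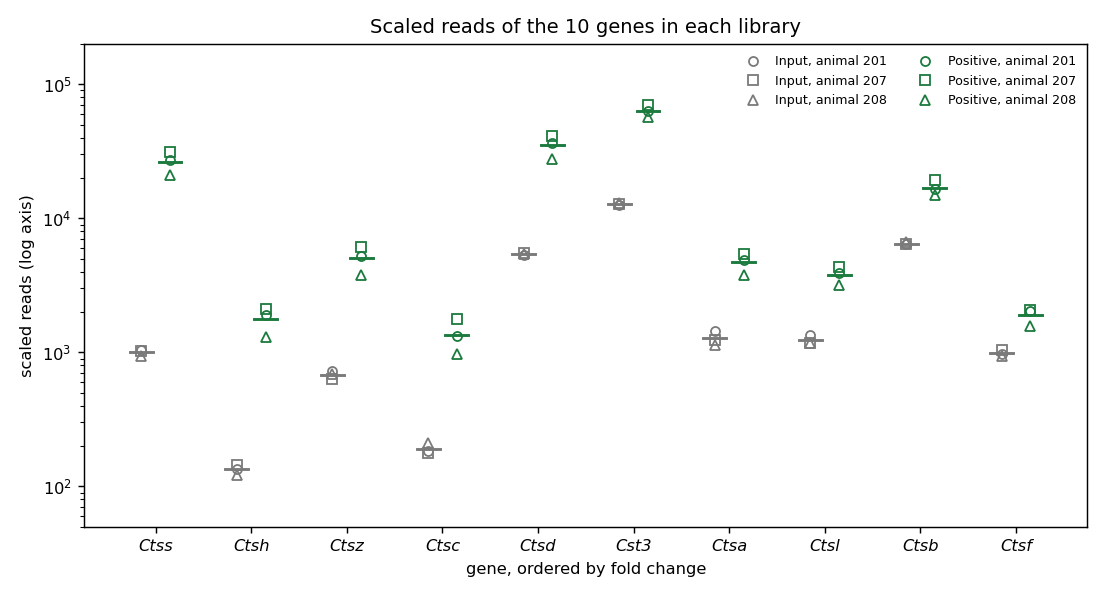
Scaled reads (log axis) of the 10 genes in each of the 6 libraries, with Input in grey and Positive in green, a symbol for each animal and a line at the mean of 3 libraries. The Positive points lie above the Input points for all 10 genes, and the triangle of animal 208 is the lowest Positive point of each gene.

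The size of the difference varied widely among the genes. Cathepsin S, the highest, was 26.3-fold higher in Positive and stood at the level of the microglial markers, while cathepsin F, the lowest, was 1.92-fold higher. The genes fell in the order Ctss, Ctsh, Ctsz, Ctsc, Ctsd, Cst3, Ctsa, Ctsl, Ctsb and Ctsf. Of the 45 pairs that the 10 genes form, 43 had the same sign of the difference in log2 ratio in all 3 animals. The pairs without one sign were Ctsz with Ctsc and Ctsc with Ctsd, which are neighbours in this order.

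Cathepsin S is a papain-family endopeptidase of antigen-presenting cells and macrophages that cuts the invariant chain of MHC class II and stays active at neutral pH. Its gene, Ctss (ENSMUSG00000038642, chr3:95526786-95556403, plus strand, mm10), had 1049.5, 1024 and 942 scaled reads in the Input of animals 201, 207 and 208. In Positive it had 27066, 31095 and 21147. The log2 fold change was 4.72 ± 0.14 (SE of the fit), with an adjusted p of 1.9e-10 (edgeR). The difference lay above that of 99.6% of all genes tested. Within the animals, the log2 ratio of Ctss minus the median log2 ratio of the 10 microglial markers was 0.10, -0.02 and 0.10.

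Cathepsin H is an aminopeptidase of the papain family, and cathepsin C, or dipeptidyl peptidase I, removes dipeptides and activates serine proteases of immune cells. Ctsh (ENSMUSG00000032359, chr9:90054152-90076089, plus strand) had 136, 144 and 123 scaled reads in Input and 1904, 2098 and 1300.5 in Positive. Ctsc (ENSMUSG00000030560, chr7:88278085-88310888, plus strand) had 184, 178 and 209.8 scaled reads in Input and 1317, 1778 and 977 in Positive. Both had fewer scaled reads in Input than the other 8 genes. Ctsh was 13.2-fold higher, a log2 fold change of 3.72 ± 0.17 with an adjusted p of 2.1e-09 (edgeR). Ctsc was 7.14-fold higher, a log2 fold change of 2.84 ± 0.19 with an adjusted p of 6.9e-08 (edgeR). Ctsc varied most between animals, from 4.64-fold in animal 208 to 9.96-fold in animal 207.

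Cathepsin Z, also called cathepsin X, is a carboxypeptidase of the papain family. Ctsz (ENSMUSG00000016256, chr2:174427493-174439039, minus strand) had 721, 628 and 689.9 scaled reads in Input and 5273, 6120.4 and 3798 in Positive. It was 7.45-fold higher, a log2 fold change of 2.90 ± 0.15 with an adjusted p of 6.1e-09 (edgeR). Its log2 ratio exceeded that of Ctsc by 0.08 ± 0.15 (SD over 3 animals), so the order of these 2 genes was within the spread between animals.

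The other papain-family members, cathepsins L, B and F, had smaller differences. Cathepsin L is a broad endopeptidase and cathepsin B also trims dipeptides from the carboxyl end, and both are found in many cell types. Ctsl (ENSMUSG00000021477, chr13:64359337-64370890, minus strand) had 1358, 1175 and 1168 scaled reads in Input and 3892, 4344 and 3199 in Positive. Ctsb (ENSMUSG00000021939, chr14:63122462-63145923, plus strand) had 6425, 6426 and 6616 scaled reads in Input and 16558, 19183 and 15046 in Positive. Ctsf (ENSMUSG00000083282, chr19:4855129-4860912, plus strand) had 978, 1036 and 947 scaled reads in Input and 2042, 2063 and 1568 in Positive. The fractions did not overlap for any of these 3 genes, although the differences were 3.09-fold, 2.61-fold and 1.92-fold. The log2 fold changes were 1.63 ± 0.11, 1.38 ± 0.10 and 0.94 ± 0.10, with adjusted p-values of 9.7e-08, 1.4e-07 and 1.1e-05 (edgeR). Ctsf, the smallest of the 10, still lay above 91.3% of all genes tested. Its fold was 7.57% of the median fold of the microglial markers, against 104% for Ctss.

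Cathepsin D is the aspartic protease of the lysosome, and cathepsin A is a carboxypeptidase that also holds β-galactosidase and neuraminidase in a stable complex. Ctsd (ENSMUSG00000007891, chr7:142375911-142388038, minus strand) had 5373, 5496 and 5419 scaled reads in Input and 36501, 41199.8 and 27948 in Positive. It was 6.49-fold higher, a log2 fold change of 2.70 ± 0.13 with an adjusted p of 3.8e-09 (edgeR). The annotation places another gene of the same strand, AC034099.1 (ENSMUSG00000110040, chr7:142371096-142382667), over 6757 bases of Ctsd. It was listed with 6.21% to 8.03% as many reads as Ctsd in every library and with a log2 fold change of 2.69, so how reads were divided between these overlapping genes is uncertain. Ctsa (ENSMUSG00000017760, chr2:164832873-164841032, plus strand) had 1452, 1239 and 1134 scaled reads in Input and 4854, 5452 and 3755 in Positive. It was 3.68-fold higher, a log2 fold change of 1.88 ± 0.13 with an adjusted p of 1.2e-07 (edgeR). Ctsa overlaps Neurl2 and Pltp, which lie on the other strand, and the reads were counted by strand.

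Cystatin C had the most reads of the 10 genes. Cst3 (ENSMUSG00000027447, chr2:148871722-148875692, minus strand) had 12531, 12808 and 12949 scaled reads in Input and 63479, 69625 and 56613 in Positive. It was 4.95-fold higher, a log2 fold change of 2.31 ± 0.10 with an adjusted p of 2.1e-09 (edgeR). Its log2 ratio minus the median log2 ratio of the microglial markers was -2.25, -2.50 and -2.26 in animals 201, 207 and 208. Astrocytes are also known to make cystatin C.

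The study called genes more than 5-fold higher in Positive markers of the tagged cells, and 5 of the 10 genes were past that fold, Ctss, Ctsh, Ctsz, Ctsc and Ctsd. Of all genes tested, 3.75% were called and over 5-fold higher. Ctsd had the smallest fold of these 5 genes, at 6.49-fold, and Cst3 lay just outside the limit, at 4.95-fold. Only Ctss, Ctsh, Ctsz and Ctsd were over 5-fold in each of the 3 animals, since Ctsc was 4.64-fold in animal 208. Without the Positive library of animal 208, Cst3 was 5.22-fold higher and 6 genes were past the limit.

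**Figure D2:**
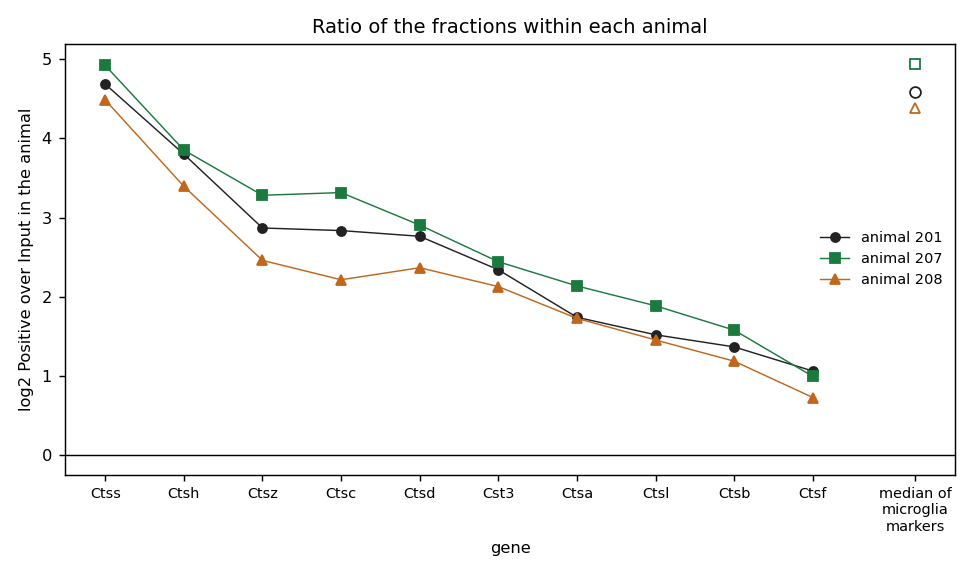
Log2 ratio of Positive to Input scaled reads (pseudocount 1) of the 10 genes within animals 201, 207 and 208, beside the median ratio of 10 microglial markers in the same animals. The line of animal 208 is the lowest at each gene, the line of animal 207 is the highest except at Ctsf, and only Ctss reaches the level of the markers.

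Animal 208 had the lowest ratio for all 10 genes, and its marker median was also the lowest, at 4.38 against 4.59 and 4.95 in animals 201 and 207. Expressed as a distance from the marker median of the same animal, 9 of the 10 genes were spread less between animals. The SD of the log2 ratio over animals was 0.22 for Ctss and 0.28 for Ctsd, and the SD of the distance was 0.07 and 0.12. For Ctsf the SD of the distance, 0.22, was above that of the ratio, 0.18.

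The promoters of the genes were read for the letters of known sites, as a description. The RefSeq table used (GRCm38.p6, 250 bases before to 50 after each start) held 9 promoters of 8 genes, with 2 for Ctsa. No entry was matched for Ctsb and Ctsh. The motifs CACGTG, the core of the E-box, TCACGTGA, the palindromic form that the lysosomal regulator TFEB is known to bind and which contains the core, GAGGAAGT, a core of sites of the macrophage factor PU.1, and GGGCGG, the GC box, were searched on both strands. CACGTG was found in promoters of 4 of the 8 genes, Ctsa, Ctsd, Ctsl and Ctsf, against 8.09% of the 27025 genes with a promoter in the table. TCACGTGA was found in Ctsa and Ctsd, against 1.12% of genes. GAGGAAGT was found in Ctss and Ctsc, against 3.69% of genes. GGGCGG was found in 6 of the 8 genes, against 38.2%. Ctsz and Cst3 held the GC box alone. The stretches with the E-box letters and the PU.1 letters are shown 5′ to 3′ on the strand of the gene, with those letters in capitals, to show where they lie relative to the start at position 1. That start is the RefSeq one. For Ctsl, Ctsd, Ctsf and the second promoter of Ctsa it lies inside the gene bounds given above. The stretches shown for Ctsl and Ctsa lie wholly within those bounds.
Ctss, position -250 to 6, chr3:95526536-95526791, plus strand: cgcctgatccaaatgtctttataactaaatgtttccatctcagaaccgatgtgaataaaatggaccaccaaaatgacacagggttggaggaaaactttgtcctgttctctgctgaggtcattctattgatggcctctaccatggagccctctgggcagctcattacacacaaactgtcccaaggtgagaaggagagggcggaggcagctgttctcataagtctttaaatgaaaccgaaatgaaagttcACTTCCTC
Ctsc, position -180 to -121, chr7:88277905-88277964, plus strand: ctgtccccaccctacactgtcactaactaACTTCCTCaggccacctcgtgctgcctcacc
Ctsd, position -250 to -1, chr7:142387828-142388077, minus strand: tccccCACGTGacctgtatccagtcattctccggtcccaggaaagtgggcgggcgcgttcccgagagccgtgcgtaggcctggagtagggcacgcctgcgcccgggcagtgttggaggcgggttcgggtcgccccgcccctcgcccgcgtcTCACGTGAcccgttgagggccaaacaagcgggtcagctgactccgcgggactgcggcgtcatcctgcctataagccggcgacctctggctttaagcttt
Ctsa, second promoter, position -16 to 14, chr2:164833757-164833786, plus strand: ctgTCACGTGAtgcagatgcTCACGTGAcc
Ctsl, position -250 to -191, chr13:64370711-64370770, minus strand: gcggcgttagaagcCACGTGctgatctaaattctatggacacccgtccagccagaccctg
Ctsf, position -108 to -49, chr19:4855057-4855116, plus strand: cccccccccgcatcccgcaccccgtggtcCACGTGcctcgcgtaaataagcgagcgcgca
In Ctss the letters of the PU.1 core lie across the start, from position -2 to 6, and in Ctsc they lie from -151 to -144, in both on the strand opposite to the gene. In Ctsd the palindromic E-box lies from -99 to -92 and the other E-box core from -245 to -240. In Ctsa there are 2 palindromic E-boxes, from -13 to -6 and from 5 to 12. The 2 genes with the PU.1 letters, Ctss and Ctsc, had log2 fold changes of 4.72 and 2.84. Ctsd, Ctsa, Ctsl and Ctsf, with the E-box core, had 2.70, 1.88, 1.63 and 0.94. Ctsz and Cst3, with neither, had 2.90 and 2.31, and Ctsh and Ctsb, without an entry, had 3.72 and 1.38. A relation of motif to fold change was not tested. A match of letters is a description of the sequence and was not tested as a binding site.

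Levels were compared between genes as scaled reads per kilobase of the principal transcript of GENCODE M21, since a longer transcript yields more reads. On this scale the Input level ran from Cst3 at 14841 ± 247 (SD, n = 3) through Ctsd at 2553 ± 29 and Ctsb at 1368 ± 23 down to Ctsh at 82.9 ± 6.7 and Ctsc at 76.3 ± 6.9. Between these lay Ctss at 742 ± 41, Ctsl at 626 ± 55, Ctsf at 499 ± 23, Ctsz at 472 ± 33 and Ctsa at 349.7 ± 44. Ctsf and Ctsz overlapped between libraries, as did Ctsh and Ctsc, and the other neighbours in this order did not.

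In Positive, the level per kilobase ran from Cst3 at 73534 ± 7569 (SD, n = 3) and Ctss at 19509.8 ± 3693 through Ctsd at 16557 ± 3159 down to Ctsc at 545 ± 161. Ctss was above Ctsd in each of the 3 libraries although their ranges overlapped. Ctsb at 3569 ± 441 and Ctsz at 3514 ± 816 could not be ordered, as Ctsb was the higher in 1 of 3 libraries. Ctsl at 1934 ± 292, Ctsa at 1285 ± 236, Ctsh at 1093 ± 257 and Ctsf at 955 ± 141 followed, and Ctsa with Ctsh and Ctsh with Ctsf overlapped in range but kept their order in each library.

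Cst3 was the gene with the highest level per kilobase in all 3 Positive libraries, among the 15370 genes with a length, and it was at places 18 to 21 in Input. It also held the first place in Positive with coding length or with the length of all exons, and places 1 to 2 by scaled reads with no length. Ctss moved from places 1595 to 1825 in Input to places 3 to 15 in Positive, and Ctsd from 310 to 316 to 9 to 25. With coding length the places in Positive were 20 to 49 for Ctss and 16 to 40 for Ctsd, so the order of these 2 genes depended on the length used.

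The 10 genes together took 0.194% ± 0.001 (SD, n = 3) of the reads of an Input library. In Positive they took 1.00%, 1.11% and 0.82% in animals 201, 207 and 208. The difference of 0.783 percentage points had an exact permutation p of 0.1 (two-sided), the smallest that 3 libraries against 3 allow. Cst3 alone took 0.08% of the reads in Input and 0.39% ± 0.04 in Positive.

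The makeup of the cathepsins differed between the fractions. Of the summed level per kilobase of the 9 cathepsins, Ctss held 10.96% ± 0.45 in Input and 39.8% ± 0.2 in Positive (SD, n = 3). Ctsb went from 20.2% ± 0.7 to 7.36% ± 0.64 and Ctsf from 7.37% ± 0.33 to 1.96% ± 0.13. Ctsl went from 9.24% to 3.97% and Ctsa from 5.16% to 2.63%, and Ctsh from 1.23% to 2.22%. For these 6 genes the libraries of the fractions did not overlap, and the exact permutation p was 0.1 (two-sided), the smallest possible, with each of the 3 lengths tried. The shares of Ctsd, Ctsz and Ctsc changed direction or lost their separation with the length. Ctsd, for example, went from 37.7% to 33.8% by the principal transcript and from 28.3% to 32.6% by coding length.

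**Figure D3:**
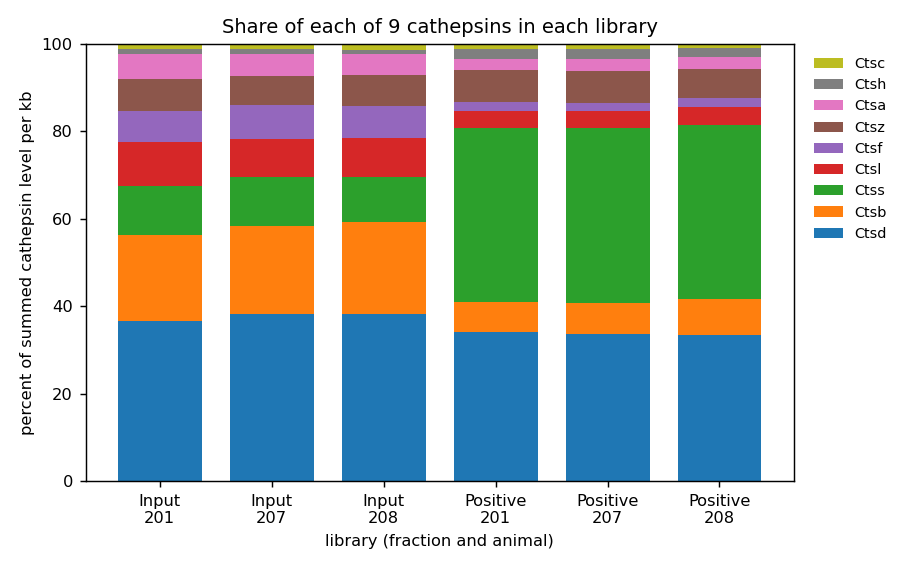
Share of each of 9 cathepsins in their summed level per kilobase of the principal transcript (percent), stacked for the 3 Input and the 3 Positive libraries. The Ctss segment covers 10.4% to 11.2% of an Input bar and 39.7% to 40.0% of a Positive bar, and the Ctsb segment covers 19.6% to 20.9% of an Input bar and 6.94% to 8.09% of a Positive bar.

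Cystatin C was also set against the family of its target enzymes, the 7 papain-family members Ctss, Ctsb, Ctsl, Ctsh, Ctsc, Ctsz and Ctsf, within each library. How strongly it inhibits each of the 7 was not examined. There were 1.15, 1.21 and 1.21 Cst3 reads per read of the 7 genes in Input and 1.09, 1.04 and 1.20 in Positive. The means were 1.19 ± 0.03 and 1.11 ± 0.08 (SD, n = 3), the ranges overlapped, and the exact permutation p was 0.2 (two-sided). Within animals 201, 207 and 208 the ratio differed by -0.0614, -0.163 and -0.00715, lower in Positive in 3 of 3, and the exact paired permutation p was 0.25 (two-sided), the smallest that 3 pairs allow. On the log2 scale the difference was -0.10, and it was -0.69 when reads were taken per kilobase of the principal transcript, where Input lay at 3.84 ± 0.15 and Positive at 2.39 ± 0.22 with no overlap.

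Against Ctss alone and against the sum of the other 6 enzymes, Cst3 differed in opposite directions. There were 12.7 ± 0.9 Cst3 reads per Ctss read in Input and 2.42 ± 0.23 in Positive, with 11.9, 12.5 and 13.7 against 2.35, 2.24 and 2.68 in the libraries. Against the other 6 enzymes, Cst3 went from 1.31 ± 0.03 to 2.06 ± 0.12 reads per read. Both differences had an exact permutation p of 0.1 (two-sided), the smallest possible here. This split was not among the planned results, and it sets apart the gene with the largest fold of the 10. The direction against Ctss follows from the folds already given, 26.3 for Ctss and 4.95 for Cst3. The direction for the sum does not hold for each of the 6 genes, since Ctsh, Ctsz and Ctsc were 13.2-fold, 7.45-fold and 7.14-fold higher in Positive, more than Cst3 at 4.95-fold, and Ctsl, Ctsb and Ctsf were less.

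**Figure D4:**
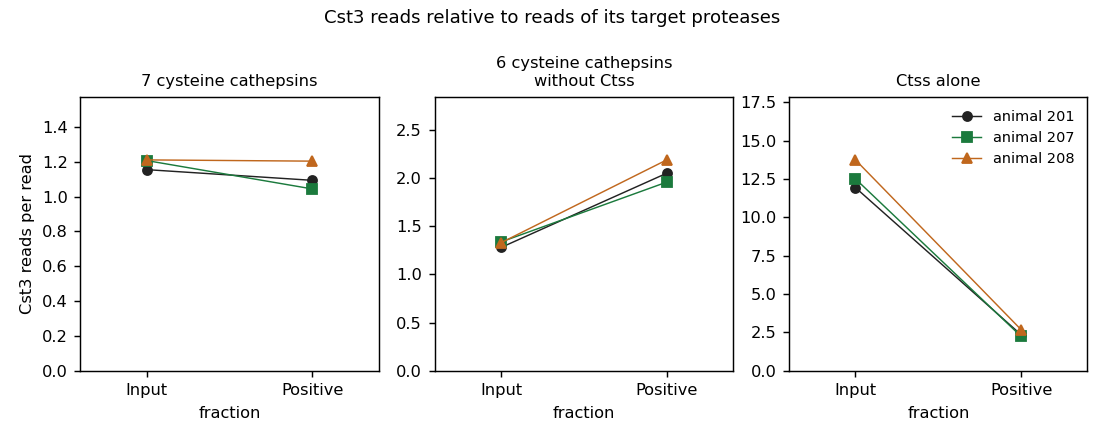
Cst3 reads per read of the 7 papain-family cathepsins (left), of the 6 without Ctss (middle) and of Ctss alone (right), in Input and Positive of animals 201, 207 and 208, with a line for each animal. The left lines stay between 1.04 and 1.21, the middle ones end at 1.96 to 2.19, and the right ones go from 11.9 to 13.7 in Input to 2.24 to 2.68 in Positive.

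Of 18 further genes of the cathepsin family and its relatives, 4 were in the table, 3 of them higher in Positive and 1 lower. Lgmn, the asparagine-specific protease legumain that processes other cathepsins, had 1293, 1375 and 1230.5 scaled reads in Input and 12559, 14827 and 10123 in Positive. Its log2 fold change of 3.27 ± 0.13 lay between those of Ctsh and Ctsz. Ctso, a papain-family cathepsin of unclear function, had a log2 fold change of 0.65 ± 0.13, and Tinagl1, a matrix protein related to cathepsins that lacks protease activity, had 1.13 ± 0.21. The adjusted p-values were at most 0.0016 (edgeR).

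Ctsk, the collagen-degrading cathepsin of bone-resorbing osteoclasts, was the 1 gene of the family that was lower in Positive. It was sparse, with 36.7, 54.5 and 28.3 scaled reads in Input and 27.3, 19.2 and 14.1 in Positive, and the highest Positive library lay just below the lowest Input library. The log2 fold change was -0.98 ± 0.33 with an adjusted p of 0.029 (edgeR). The call was lost when either of the Input libraries of animals 201 and 207 or either of the Positive libraries of animals 207 and 208 was left out, with adjusted p-values of 0.052 to 0.16, and in DESeq2 at 0.054. Ctsk (ENSMUSG00000028111, chr3:95499256-95509362, plus strand) ends 17423 bases before Ctss on the same strand, with no other gene of the table between them.

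**Figure D5:**
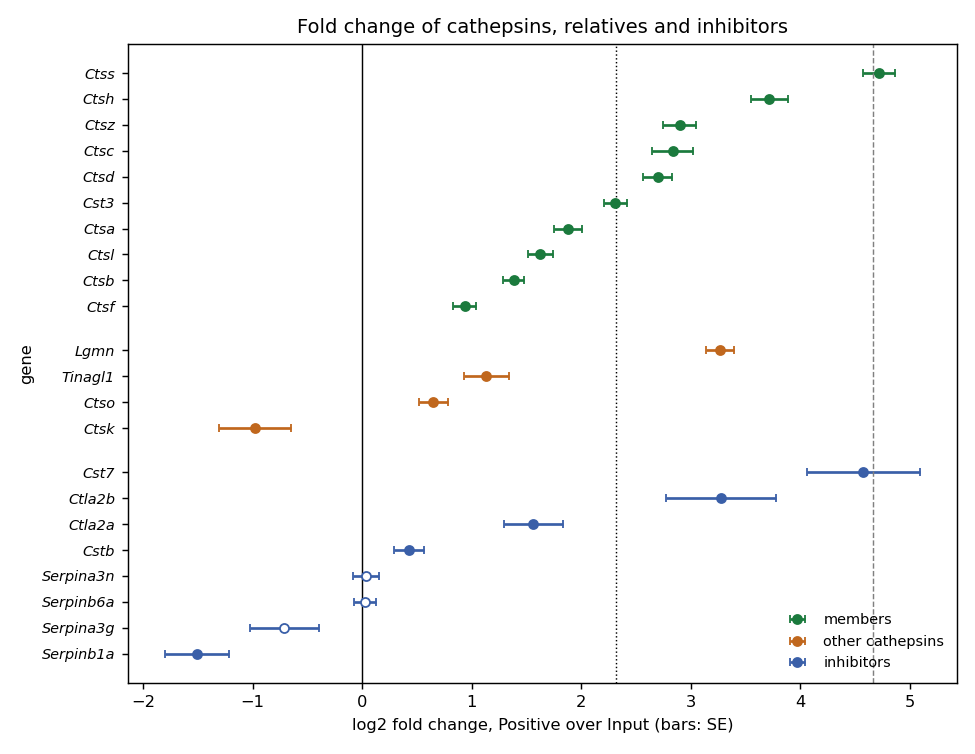
Log2 fold change of Positive over Input with its SE for the 10 genes (green), 4 further cathepsins and relatives (orange) and 8 inhibitors (blue), where open circles did not pass an adjusted p of 0.05. The dotted line marks 5-fold and the dashed line the median of 10 microglial markers at 4.66. Of the 22 genes, Ctsk and Serpinb1a were called to the left of 0. The value of Cst7 rests on at most 2 reads in each Input library, and that of Ctla2b on 1.97 to 7.49.

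Of 26 further inhibitors of these proteases, 8 were in the table, 4 of them higher in Positive, 1 lower and 3 not called. Cst7, or cystatin F, an intracellular inhibitor of cathepsin C in immune cells, had 0, 1.88 and 2.10 scaled reads in Input and 37.1, 29.8 and 37.4 in Positive, with an adjusted p of 1.2e-05 (edgeR). No fold is given for it, because each Input library held 0 to 2 reads. Cstb, the cytosolic inhibitor stefin B, had 221, 228 and 237 scaled reads in Input and 315, 344 and 263 in Positive. Its log2 fold change was 0.43 ± 0.14 with an adjusted p of 0.020 (edgeR), and the call was lost in 4 of the 6 fits that left out 1 library, with adjusted p-values up to 0.095.

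Ctla2a and Ctla2b, which resemble the propeptide of cathepsins and inhibit them, had log2 fold changes of 1.56 ± 0.27 and 3.28 ± 0.50. The pair is near-identical in sequence, so reads could have been divided between them by the counting, and their separate values are uncertain. Ctla2b was also sparse in Input, with 2.01, 7.04 and 2.36 scaled reads, against 25.1, 54.8 and 29.1 in Positive. The size of its difference therefore rests on few Input reads. Among the serine protease inhibitors that can also bind cathepsins, Serpinb1a, which blocks neutrophil proteases, was lower in Positive with a log2 fold change of -1.51 ± 0.29 (adjusted p = 0.0010, edgeR). Serpinb6a, Serpina3n and Serpina3g had log2 fold changes of 0.03 ± 0.10, 0.04 ± 0.12 and -0.71 ± 0.31 and did not pass the test. With limma 2 of the 8 inhibitors were lower.

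Genes that sort and activate cathepsins differed less than the enzymes. Of 20 tested, among them mannose 6-phosphate receptors, the enzymes that make the tag, subunits of the proton pump and the transcription factors Tfeb and Tfe3, 9 were higher in Positive, 4 lower and 7 not called, with a median log2 fold change of 0.23. The 4 with the most reads were Atp6v1b2 and Atp6v1a, subunits of the pump, and Sort1 and Sorl1, sorting receptors. Sort1 rose by 0.28 ± 0.08 on the log2 scale and Sorl1 fell by 0.24 ± 0.08, both at adjusted p-values of 0.012 to 0.022 (edgeR). The pump subunits had log2 fold changes of 0.21 ± 0.09 and 0.20 ± 0.08 and were not called. The calls of Sort1 and Sorl1 were lost in 2 and 3 of the 6 fits without 1 library. The counts for the 20 genes depended on single libraries, with 4 higher and 3 lower without the Input library of animal 207, and 4 and 1 without that of animal 208. Without the Positive library of animal 201 there were 6 higher and 3 lower. Without the Input library of animal 201 or the Positive library of animal 207, 2 were lower. With total count scaling 5 were higher and 4 lower, and with limma 6 and 2.

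Of 13 partners and substrates, 7 were higher and none was lower, with 6 not called and a median log2 fold change of 0.50. The 4 with the most reads were Psap, the precursor of saposins that cathepsin D cleaves, App, the amyloid precursor protein, Lrp1, an endocytic receptor, and Cx3cl1, the neuronal ligand of the receptor Cx3cr1. Psap had a log2 fold change of 0.50 ± 0.09 with an adjusted p of 0.00073 (edgeR). Lrp1 rose by 0.25 ± 0.09 with an adjusted p of 0.038, and that call was lost under 8 of 14 alternative settings. App and Cx3cl1 had 0.08 ± 0.09 and 0.19 ± 0.09 and were not called.

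Other lysosomal enzymes and membrane proteins moved mostly in the same direction as the cathepsins, with 28 of 37 higher in Positive, 2 lower and 7 not called. Their median log2 fold change was 0.84, against 2.50 for the 10 genes. Among those with the most reads were Gaa, the acid α-glucosidase, Lamp1, a membrane glycoprotein, and Ids, iduronate sulfatase. They had log2 fold changes of 0.07 ± 0.08, 0.90 ± 0.10 and -0.94 ± 0.09, of which Gaa was not called. Of the 37 genes, 4 were called and over 5-fold higher, with log2 fold changes within the range of the 10 genes. Without the Positive library of animal 208, 29 were higher and 2 lower. Without the Input library of animal 201 or the Positive library of animal 207, 28 were higher and 1 lower.

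Markers of other cells were read beside the 10 genes. All 6 markers of border macrophages (Mrc1, Lyve1, Cd163, Pf4, Ms4a7 and Cbr2) were higher in Positive, with a median log2 fold change of 4.08, and their summed level was 165 to 210 scaled reads in Input and 2026 to 4538 in Positive. All 6 endothelial markers were higher as well, with a median of 1.97 and summed levels of 1478 to 1845 and 4022 to 8064. Both sums were lowest among Positive libraries in animal 208, as were the 10 genes. The summed astrocyte, oligodendrocyte and mural markers were lowest there too, so this was not particular to border macrophages or endothelium. The neuronal sum was highest there, at 117500 scaled reads against 102977 and 99961 in animals 201 and 207. All 6 oligodendrocyte markers were lower, with a median of -2.68. Of 8 astrocyte markers 1 was higher and 4 were lower, of 8 neuronal markers 2 were higher and none lower, and of 5 mural markers 1 was lower. Their median log2 fold changes were -0.39, 0.10 and -0.29. The neuronal markers summed to 92477 to 105480 scaled reads in Input and 99961 to 117500 in Positive, so this sum was not lower in Positive. With its own marker lists, the study reported genes of other cell types as mostly depleted in hippocampal Positive RNA. Leaving out the Positive library of animal 201 gave 1 astrocyte marker higher and 7 lower, the animal as a block gave 1 and 6, and scaling by total counts gave 0 and 7. The 1 astrocyte marker called higher was also not called without any 1 of the 3 Input libraries, without the Positive library of animal 207, with the size factors of the authors and with limma. Of the mural markers 3 were lower without the Positive library of animal 201, and 1 was higher without that of animal 208 and with the block. Of 6 markers of monocytes and neutrophils only Ly6c2 was in the table, at 2.10 to 12.2 scaled reads in Input and 20.8 to 24.7 in Positive. Of 6 markers of hippocampal neurons 2 were higher and 2 lower, with a median of -0.02. Dsp, or desmoplakin, a marker of dentate granule cells, had 748, 811 and 975 scaled reads in Input and 6212, 15366 and 9695 in Positive. It was 12.4-fold higher, a log2 fold change of 3.63 ± 0.26 with an adjusted p of 1.6e-07 (edgeR), and unlike the 10 genes its lowest Positive library was that of animal 201. Prox1, a transcription factor of the same cells, had a log2 fold change of 0.35 ± 0.13 with an adjusted p of 0.039, and its call was lost under 5 of 14 alternative settings, while Wfs1 and Fibcd1 fell by 0.49 and 0.45 on the log2 scale. None of the cell type markers in the table was at 0 in any library, and the part of these cells in the result for the 10 genes was not tested.

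Across 12112 genes of at least 100 mean scaled reads, the genes with the pattern most like each of the 10 were found by the distance between their log2 ratios in the 3 animals. Ctss lay nearest to Lag3 and C1qb, at distances of 0.04 and 0.11 on the log2 scale. Ctsh lay nearest to Arhgap45 and Bmf, Ctsz to Rubcnl and Srgn, and Ctsc to Ggta1 and Ets1, at distances of 0.13 to 0.21. Ctsd lay nearest to H2-D1 and Tgm2, and Cst3 to Tln1 and Scamp2. At the lower end, Ctsa lay nearest to Stk17b and Ttc7, Ctsl to Tfpi and Camk1, Ctsb to Hnrnpf and Orai1, and Ctsf to Psme1 and Pfkfb3, at distances of 0.03 to 0.12. With 3 animals such a list describes likeness in these libraries alone.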

How the data were processed

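Libraries were directional and poly(A)-selected. The authors aligned read pairs to mm10 in Strand NGS using strand, and deposited raw columns hold expected counts per Ensembl gene, which need not be whole. The deposited log2 columns, normalized by DESeq, were used only in an alternative. Of whole values under 60 reads, 64.7% to 69.3% were even in a library, and whether both mates of a pair were counted is unknown. Genes in the table reach 20 raw reads in all 3 libraries of either fraction. Depths are in the text; reads carried no molecular identifiers.

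Expected counts were rounded and tested in R 4.3.3 with edgeR 4.0.16 (glmQLFit, glmQLFTest, median-of-ratios scaling, unpaired as in the study), after removal of 44 genes at or below 20 scaled reads. Adjustment was by Benjamini-Hochberg, for the 15344 genes left, with 0.05 as threshold. Single values were tested by exact permutation of the 6 libraries (scipy 1.17.1). Alternatives were TMM, total count and the authors' scaling, other filters, DESeq2 1.42.0, limma 3.58.1, the animal as a block, and leaving out each library. Lengths are exons of the principal transcript (GENCODE M21). The method was also run on simulated counts with a common dispersion, no animal effect and few changed genes. That setting is unlike these data, so the run checked the code and not these results.

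Groups came from the fraction label, and animal numbers pair the fractions. Deviations of same-animal libraries from their fraction means correlated across genes by 0.19, 0.06 and 0.12, against -0.14 to 0.03 for other pairs. Named genes were all 10 members, all further family genes and inhibitors in the table, the 4 genes of most reads of each other list, the 2 nearest patterns and the nearest gene on each side. A gene that the rule took is not reported here. Members, lists and motifs were chosen with earlier results of these data known. P-values rest on these 3 animals alone. Those of edgeR came from an unpaired fit in which the spread of each gene was moderated across genes. The exact permutation of the 6 libraries left out the pairing, which the paired permutation given for Cst3 used.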

Additional observations from a re-analysis of the deposited data

How the results depend on the processing

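All 10 genes were called higher, and none lower, under each of the 14 alternative settings, and 140 of 140 single values kept direction and call. The count over 5-fold was 5 in each setting but 1, and 5 to 6 with 1 library left out. The median log2 fold change of the 10 genes was 2.43 with total count scaling, and 2.40 to 2.61 with 1 library left out. With the animal as a replicate block, 7567 genes differed in all against 7054 without it, the median of the 10 genes was 2.49, and no call of the 10 genes changed. Leaving out 1 library gave 5541 to 7259 differing genes. The order of the 10 fold changes was the same in 13 of 14 settings, and without the Input library of animal 208 Ctsc stood before Ctsz. The log2 ratio of Cst3 to the 7 papain-family genes, -0.10 in reads, was -0.69 per kilobase of the principal transcript, and, with lengths added after seeing the data, -1.003 per kilobase of all exons and -0.12 per kilobase of coding length. It was -0.16 to -0.05 with 1 library left out. The share of reads in the 10 genes differed by 0.717 to 0.861 percentage points with 1 library left out. Of 63 other named genes, 5 lost a call and 3 gained one under some setting. The number of animals limits precision, and genes below the limit of the table were not analysed here.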

Other observations

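The genes next to the 10 on the chromosome were read as values, without a test of position. Of the 20 nearest genes, 1 on each side, 5 were higher in Positive, 2 lower and 13 not called. Among all genes tested, 24% were called higher and 22% lower. The 5 higher genes were Golph3l beside Ctss, Morf4l1 beside Ctsh, AC034099.1 and Lsp1 beside Ctsd, and Pltp beside Ctsa, with log2 fold changes of 0.69, 0.32, 2.69, 3.30 and 0.83. AC034099.1 overlaps Ctsd, and how reads were divided between these 2 genes is uncertain. Lsp1, a leukocyte actin-binding protein that lies 72770 bases from Ctsd, had a difference above that of Ctsd. The 2 lower genes were Ctsk beside Ctss and Atp5e beside Ctsz, at -0.98 and -0.71. Both neighbours of Ctsc, of Cst3, of Ctsl, of Ctsb and of Ctsf were not called. Fdft1 overlaps Ctsb by 774 bases and Nelfcd overlaps Ctsz by 10 bases on the other strand, and their log2 fold changes were 0.01 ± 0.08 and 0.04 ± 0.10.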
